A study of Mus musculus with 20 samples.

Results

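The genes described here are the pathway that makes cholesterol and the proteins that sense and move it: 18 enzymes, from the entry of acetyl groups into the mevalonate pathway to the last sterol reductase, 7 sensors and transcription factors, and 5 transport proteins. They were taken by name, 30 of the 22296 named genes, and every member was on the array, Msmo1 under its older name Sc4mol. Together they had 42 probes. Each gene is represented by its brightest probe, 19 members having 1 probe, 10 having 2 and 1 having 3.

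RNA was measured on 20 microarrays of 1 colour. It came from C57BL/6 mice labelled Irgm1-/- and wild type mice. Irgm1 encodes an interferon-induced GTPase with roles in autophagy and in cell-autonomous defence. Salivary gland came from 4 female Irgm1-/- mice of 9 weeks and 4 female wild type mice of 6 to 7 weeks. Whole duodenum (labelled small intestine) and isolated colonic macrophages came from the same 6 animals, 3 Irgm1-/- mice (2 males and 1 female) and 3 wild type females, all 6 or 8 weeks old. Genotype therefore ran with age in salivary gland and with sex in the intestinal tissues. No other allele or treatment is given for any group, and all mice ate the same autoclaved chow in a pathogen-free facility.

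The tissues were scanned on different days, so tissue cannot be told apart from scan day, and each of the 2 slides per tissue held both genotypes. The 75th percentile of intensity ran in salivary gland from 134 to 1083 and in macrophages from 888 to 2101. In small intestine it ran from 2563 to 5070.2 and was higher on every Irgm1-/- array than on any wild type array. Probes well above background made up 25.2% to 74.4% of an array, and the number of arrays limits the precision. The level of Irgm1 was not reduced but raised on arrays labelled Irgm1-/-, by 2.64 (adjusted p = 0.000399), 1.16 (adjusted p = 0.0396) and 0.88 (adjusted p = 0.257) on the log2 scale in salivary gland, small intestine and macrophages. These levels go against the label. Which exons were removed is not stated in these sources, so a probe outside them would check nothing, and every direction given here follows the label. The colonic macrophage label was checked against 9 macrophage markers. On a scale common to all arrays their summed signal was 0.759 to 2.16 on the Irgm1-/- and 1.37 to 5.25 on the wild type macrophage arrays, against 3.57 to 4.91 and 2.08 to 3.24 in whole small intestine, and 8.57 to 17.5 and 5.07 to 10.8 in salivary gland. On this scale the preparations overlapped whole small intestine in wild type and lay below it in Irgm1-/-, and they lay below salivary gland but for an overlap in wild type, while all 4 epithelial markers were detected on each of their arrays. RNA from the colon preparation is called macrophage RNA here by its label alone.

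Cells make cholesterol from acetyl-CoA through mevalonate, isoprenoid diphosphates, squalene and a chain of sterols. When membrane cholesterol falls, Scap escorts the SREBP transcription factors, made from Srebf1 and Srebf2, out of the endoplasmic reticulum, and the released proteins switch on nearly every enzyme of the pathway, while the Insig proteins hold Scap back when sterol is plentiful. In the opposite direction, oxysterols activate the liver X receptors Nr1h2 and Nr1h3, which switch on the exporters Abca1 and Abcg1. In macrophages this export removes cholesterol taken up with dead cells and lipoproteins, and in duodenum Npc1l1 takes up cholesterol from the gut.

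Promoters of 3 enzymes are shown because they stand out in the macrophage values described next (Idi1 by its difference, Cyp51 by its detection in Irgm1-/- samples alone) or hold a sterol regulatory element that a search found (Hmgcs1). SREBPs bind that element with help from factors at CCAAT and GC boxes. The sequences are from RefSeq, build GRCm38.p6, 250 bases that end just before the annotated start of the gene, read 5′ to 3′ along the gene. Capitals mark the searched spelling of the sterol regulatory element (TCACNCCAC, in Hmgcs1 only) and the CCAAT boxes (CCAAT, or ATTGG on the other strand). Other spellings of the element were not searched, so lower case does not mean that a promoter lacks it. Idi1 lies at chr13:8885356-8885605 on the plus strand, Cyp51 at chr5:4104698-4104947 on the minus strand and Hmgcs1 at chr13:119690101-119690350 on the plus strand.
Idi1: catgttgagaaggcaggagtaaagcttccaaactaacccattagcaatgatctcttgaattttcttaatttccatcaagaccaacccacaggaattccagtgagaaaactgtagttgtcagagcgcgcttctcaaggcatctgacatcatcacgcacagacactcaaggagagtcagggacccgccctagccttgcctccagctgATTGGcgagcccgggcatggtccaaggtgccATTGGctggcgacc
Cyp51: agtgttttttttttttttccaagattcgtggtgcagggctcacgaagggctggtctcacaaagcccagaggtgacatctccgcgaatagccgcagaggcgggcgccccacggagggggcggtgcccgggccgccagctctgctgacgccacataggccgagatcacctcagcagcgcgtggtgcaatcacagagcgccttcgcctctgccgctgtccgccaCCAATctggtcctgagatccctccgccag
Hmgcs1: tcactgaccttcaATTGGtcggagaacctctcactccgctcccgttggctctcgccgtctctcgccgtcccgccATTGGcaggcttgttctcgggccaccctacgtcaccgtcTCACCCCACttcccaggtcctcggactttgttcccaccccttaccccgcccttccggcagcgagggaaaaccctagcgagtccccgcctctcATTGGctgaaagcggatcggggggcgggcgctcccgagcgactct
Counted back from the start, the CCAAT boxes stood at -45 and -14 in Idi1, at -29 in Cyp51 and at -237, -176 and -45 in Hmgcs1, whose sterol regulatory element began at -137.

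Promoter windows, taken from 250 bases before to 50 after the start and searched on both strands, were found for 24 of the 30 members and 15 of the 18 enzymes. A CCAAT box was present in 14 of these 15 enzyme genes, against 41.1% of 27025 genes. A GC box (GGGCGG) was also present in 14 of 15, against 38.2% of all genes. The searched spelling of the sterol regulatory element was present in 1 of 15, Hmgcs1, against 1.44% of all genes, and elements spelled otherwise were not counted. Of the 7 sensing and control genes, 4 held a CCAAT box and 5 a GC box. These are matches of letters in a fixed window and not measured binding.

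In colonic macrophages every enzyme of the pathway had a higher mean in the Irgm1-/- samples, but no member passed the test. All 18 enzymes had a log2 difference above 0, as did 60.5% of the 16018 genes tested, and their median was 0.85 (0.37 to 1.54), against 0.09 for all genes. At an adjusted p of 0.05, limma called 0 enzymes, against 0.0437% of all genes called higher and 0.318% called lower. At an unadjusted p of 0.05, 9 enzymes were higher, against 4.43% of all genes, and 0 members lower, against 7.9%. On 7 enzymes every Irgm1-/- array exceeded every wild type array, against 7.69% of all genes: Hmgcs1, Idi1, Sqle, Msmo1, Nsdhl, Sc5d and Cyp51. Cyp51 was well above background on 0 wild type arrays and passed the filter through the Irgm1-/- arrays alone, so its separation is no measured difference in level. Among the 17 enzymes well above background on every array, all 17 lay above 0 with a median of 0.80.

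Signals per array are given as multiples of the array's 75th percentile, replicates 1 to 3 in order. Idi1, the isomerase that makes the building block for isoprenoid chains, measured 1.24, 0.838 and 0.659 on the Irgm1-/- arrays, against 0.323, 0.364 and 0.235 on the wild type arrays. The lowest Irgm1-/- value was above the highest wild type value, and the difference of 1.54 (SE 0.32, n = 3 per group, adjusted p = 0.086), a 2.91-fold level, was the largest of the 30. Sqle, the epoxidase at a controlled step after squalene, measured 6.00, 4.33 and 3.27 on the Irgm1-/- arrays, against 2.71, 1.91 and 1.34 on the wild type arrays. The groups did not overlap, and the difference was 1.21 (SE 0.35, adjusted p = 0.152). Cyp51, which demethylates lanosterol, measured 0.105, 0.0834 and 0.0695 in Irgm1-/- samples and 0.0324, 0.0484 and 0.0301 in wild type samples. It was well above background on every Irgm1-/- array and on 0 wild type arrays, so its fitted difference of 1.23 (adjusted p = 0.105) is given as at least 1.20-fold higher, with the wild type level set to the lowest signal called well above background there.

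The other early enzymes differed in the same direction, with wide errors. Hmgcs1, the synthase that feeds the pathway, measured 12.9, 8.27 and 6.52 on the Irgm1-/- arrays, against 6.15, 4.01 and 2.96 on the wild type arrays (log2 difference 1.08, SE 0.36, adjusted p = 0.229). Its groups were separated by a narrow gap. Fdps, which joins the isoprene units into farnesyl diphosphate, measured 3.56, 2.30 and 1.97 on the Irgm1-/- arrays, against 2.02, 0.881 and 0.814 on the wild type arrays (1.16, SE 0.40, adjusted p = 0.246). Here wild type replicate 1 lay above Irgm1-/- replicate 3. The smallest difference of the 18 was at Acat2, a thiolase that joins acetyl units, with 17.4, 16.2 and 12.4 in Irgm1-/- samples and 11.2, 14.2 and 10.3 in wild type samples (0.37, SE 0.27). Mvk and Pmvk, the mevalonate kinases, differed by 0.39 and 0.52, and Mvd, the decarboxylase that follows them, by 0.78.

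Among the sterol steps, Msmo1, which oxidises methyl groups of the sterol ring, measured 4.74, 2.88 and 2.41 on the Irgm1-/- arrays, against 2.30, 1.53 and 1.13 on the wild type arrays (1.02, SE 0.36, adjusted p = 0.264). Nsdhl, the dehydrogenase that works with it, measured 0.882, 0.741 and 0.447 in Irgm1-/- samples and 0.412, 0.307 and 0.297 in wild type samples (0.99, SE 0.32, adjusted p = 0.208). Both separated the groups. Sc5d, a sterol desaturase near the end of the pathway, differed by 0.80 (SE 0.31, adjusted p = 0.325), also without overlap. Fdft1 (squalene synthase), Lss (lanosterol synthase), Dhcr7 and Tm7sf2 (sterol reductases) and Hsd17b7 (a ketosteroid reductase) lay between 0.60 and 0.90 with overlapping groups. The smallest difference among these steps was 0.54 at Ebp, the sterol isomerase, which measured 7.35, 4.90 and 4.21 on the Irgm1-/- arrays, against 4.73, 3.56 and 2.93 on the wild type arrays. Second probes went the same way for Hmgcs1 (0.76), Mvk (0.63), Tm7sf2 (1.04) and Pmvk (0.40). The exception was Fdft1, whose dimmer probe was lower on every Irgm1-/- array (-1.21), against 0.90 for the brighter probe, so its direction depends on the probe.

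**Figure D1:**
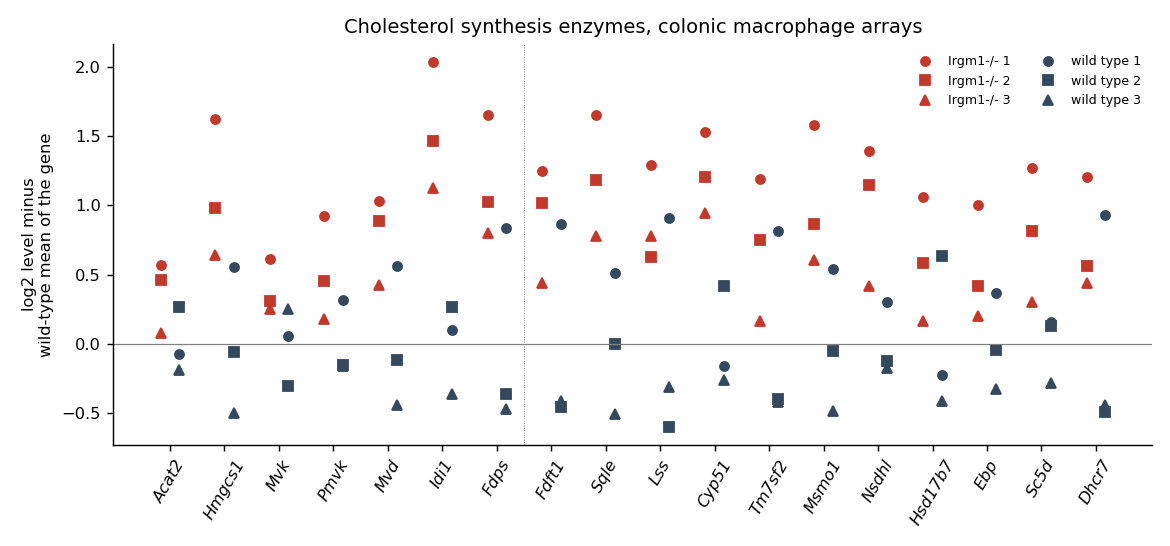
Log2 level of each of 18 enzymes on the 6 colonic macrophage arrays, minus the wild type mean of that gene. Red symbols are Irgm1-/- and dark symbols wild type arrays, with circles, squares and triangles for replicates 1, 2 and 3, and a dotted line between mevalonate and sterol steps. Irgm1-/- replicate 1 and wild type replicate 1 tend to be the highest of their groups, and the median difference over genes is 0.85.

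The enzymes varied together from array to array as well as with genotype. The median enzyme, relative to the wild type mean, stood at 1.26, 0.84 and 0.43 in Irgm1-/- samples and at 0.44, -0.09 and -0.39 in wild type samples. The highest wild type array thus lay level with the lowest Irgm1-/- array, and replicate 1 was the highest of its group in both genotypes. Replicate numbers match in age and slide, and within each of the 3 same-numbered pairs the enzymes were higher on the Irgm1-/- array: 18, 17 and 17 of 18, with medians of 0.73, 1.02 and 0.86, while 59.4%, 52.1% and 55.5% of all genes were. With the replicate number as a block, 7 enzymes passed as higher (Idi1, adjusted p = 0.0122, Sqle, 0.0139, Hmgcs1, 0.0181, Fdps, 0.0207, Msmo1, 0.0213, Nsdhl, 0.0376, and Cyp51, 0.0253, whose wild type signal was not well above background), against 2.39% of all genes higher and 6.04% lower in that fit. The pairs on slides 1 and 2 gave medians of 0.85 and 0.86.

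Sex ran with this difference. The 2 Irgm1-/- males held the highest enzyme medians (1.26 and 0.84), and the Irgm1-/- female held 0.43. Sex as a covariate, which leaves that female as the only direct comparison with the wild type females, gave a median of 0.43 with all 18 enzymes above 0, 2 enzymes at an unadjusted p of 0.05 and 0 called. The pair of replicate 3, both female, differed by 0.86 in the median.

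Other cell types in the preparations also differed between the genotypes. The summed signal of 4 epithelial markers, all detected on each array, was 102.7, 70.9 and 48.8 on the Irgm1-/- arrays, against 83.7, 39.1 and 40.6 on the wild type arrays (median log2 difference 0.58, 0 of 4 called). It was highest on replicate 1 in both groups, as was the enzyme median. The 9 macrophage markers, with 7 to 9 and 8 to 9 detected per array, summed to 4.85 to 10.7 in Irgm1-/- and 8.04 to 27.2 in wild type (median -1.26, 0 called). The 7 pancreatic acinar markers summed to 7.34 to 7.96 in Irgm1-/- and 156 to 686 in wild type, with 6 of 7 called lower. The 3 smooth muscle markers summed to 0.595 to 1.44 and 4.85 to 8.19, with 2 of 3 called lower. The part of these cells in the enzyme difference was not tested, and in a bulk sample fewer cells of a type and less RNA per cell cannot be told apart.

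**Figure D2:**
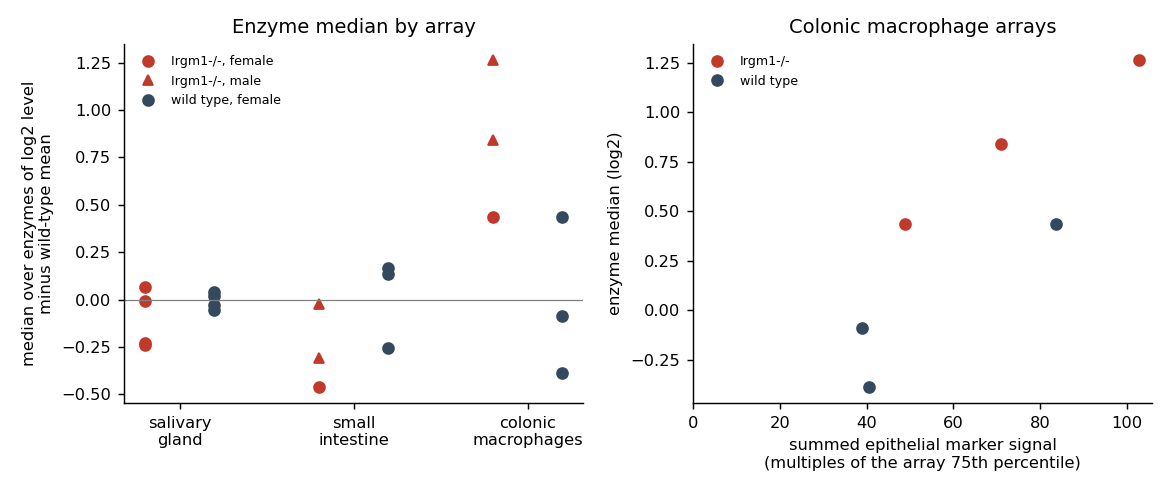
The left panel shows, for each array, the median over the tested enzymes of the log2 level minus the wild type mean, with Irgm1-/- in red left of wild type in dark, and circles for females and triangles for males. The right panel sets that median against the summed epithelial marker signal on the 6 macrophage arrays: Irgm1-/- arrays stand at 1.26, 0.84 and 0.43 and wild type arrays at 0.44, -0.09 and -0.39.

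The sensing and control genes of the macrophage samples had smaller differences than most enzymes. Insig1, the sterol sensor whose own gene is an SREBP target, measured 10.7, 8.62 and 5.25 in Irgm1-/- samples and 7.88, 4.44 and 3.95 in wild type samples, which overlapped (0.60, SE 0.37, adjusted p = 0.622). Srebf2 and Srebf1 differed by 0.29 and 0.20, Scap by 0.22 and Insig2 by 0.04. The liver X receptors stood at -0.04 (Nr1h2) and -0.16 (Nr1h3). Nr1h3 measured 1.45, 0.947 and 0.878 on the Irgm1-/- arrays, against 1.33, 0.995 and 1.26 on the wild type arrays, with overlap. Its other probe, the brighter of the pair in macrophages, was lower on every Irgm1-/- array (-0.54). Of the 7, 0 were called and 0 passed an unadjusted p of 0.05, with a list median of 0.20.

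Transport genes had no common direction in macrophages. Stard4, a carrier of cholesterol between membranes and itself an SREBP target, measured 2.71, 1.85 and 1.09 in Irgm1-/- samples and 1.38, 1.06 and 0.892 in wild type samples (0.69, SE 0.37, adjusted p = 0.535). Abca1, which exports cholesterol to apolipoproteins, measured 0.131, 0.355 and 0.350 on the Irgm1-/- arrays, against 0.168, 0.866 and 0.627 on the wild type arrays (-0.83, SE 0.63, adjusted p = 0.716). Replicate 1 was the lowest of both groups, and the groups overlapped. Abcg1, which exports cholesterol to mature lipoproteins, differed by 0.36 and Npc1, which releases cholesterol from lysosomes, by -0.19, while Npc1l1 was detected on too few arrays to be tested. The median of the enzymes minus the median of the transport genes was 0.76.

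In small intestine the enzymes leaned slightly the other way. Of 18 enzymes, 16 had a difference below 0, with a median of -0.30 (-0.56 to 0.22) that stayed between -0.40 and -0.15 under the other scalings. The median of all 14718 genes was -0.10, and between -0.20 and 0.02 under those scalings, and 36.7% of genes lay above 0. limma called 0 members, against 0.177% of genes called higher and 0% lower. At an unadjusted p of 0.05, Abcg1 was higher, against 2.64% of all genes, and Nr1h3 lower, against 4.34%. Idi1 measured 4.90, 4.93 and 3.85 in Irgm1-/- samples and 10.1, 5.40 and 5.53 in wild type samples (-0.56, SE 0.27, adjusted p = 0.664). Wild type replicate 1 stood far above the rest and the groups did not overlap. Sc5d (-0.29) also lay lower on every Irgm1-/- array. In all, 4 members were lower without overlap, against 12.9% of genes, and 1 was higher, against 4.73%. Of the sterol steps, Dhcr7 stood lowest, with 0.236, 0.329 and 0.284 on the Irgm1-/- arrays, against 0.572, 0.379 and 0.275 on the wild type arrays (-0.48, SE 0.29), and Nsdhl highest, with 1.88, 2.01 and 1.84 in Irgm1-/- samples and 1.08, 2.39 and 1.69 in wild type samples (0.22, SE 0.29). The groups of both overlapped, as did those of Mvd (-0.52). Acat2 measured 3.24, 3.26 and 3.19 on the Irgm1-/- arrays, against 2.64, 3.90 and 3.37 on the wild type arrays, a difference of -0.01 (95% interval -0.43 to 0.41).

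As a group the intestinal enzymes did not separate the genotypes. The enzyme median was -0.31, -0.02 and -0.46 in Irgm1-/- samples and 0.17, 0.13 and -0.26 in wild type samples, which overlapped, and the same-numbered pairs gave -0.64, -0.12 and -0.16. The 9 enterocyte markers summed to 326 to 348 on the Irgm1-/- arrays, against 387 to 461 on the wild type arrays, lower without overlap (median -0.36, 0 called). The 4 epithelial markers summed to 129 to 157 and 171 to 214. Their part in the enzyme values was not tested.

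Among the intestinal control and transport genes, Nr1h3, the liver X receptor that is high in gut and macrophages, measured 4.90, 5.21 and 4.95 in Irgm1-/- samples and 7.23, 6.08 and 6.71 in wild type samples (-0.41, SE 0.14, adjusted p = 0.664). Its groups did not overlap. Its other probe was lower on every Irgm1-/- array too (-0.52). Srebf1 measured 0.254, 0.253 and 0.265 on the Irgm1-/- arrays, against 0.268, 0.363 and 0.428 on the wild type arrays (-0.43, SE 0.20), also without overlap. Insig1 had the highest difference of this list but was dim and uneven, with 0.0407, 0.267 and 0.270 in Irgm1-/- samples and 0.0302, 0.207 and 0.140 in wild type samples (0.58, SE 0.97). Abcg1 measured 0.329, 0.296 and 0.343 on the Irgm1-/- arrays, against 0.191, 0.253 and 0.266 on the wild type arrays (0.46, SE 0.17, adjusted p = 0.664), without overlap. Of 9 macrophage markers, 6 were higher without overlap, against 4.73% of genes, with 0 called. Their sum overlapped, with 31.7 to 42.7 on the Irgm1-/- arrays and 25.3 to 31.9 on the wild type arrays. The part of macrophages in the Abcg1 values was not tested. Abca1 measured 1.22, 0.651 and 1.11 in Irgm1-/- samples and 1.60, 1.07 and 1.84 in wild type samples (-0.62, SE 0.31), with overlap, so the exporters pointed in opposite directions. Npc1l1, the uptake protein of the duodenum, differed by -0.39, Stard4 by 0.30 and Npc1 by 0.24. The median of the enzymes minus that of the transport genes was -0.54, but -0.10 without wild type replicate 1.

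In salivary gland the dim exporter Abcg1 was called higher, though not under every setting, and the enzymes stayed near 0. Of the 30 members 22 were tested, since Lss, Cyp51, Nsdhl, Hsd17b7, Dhcr7, Stard4, Npc1 and Npc1l1 were well above background on fewer than 4 arrays. Of the 22, only Abcg1 was called, against 2.7% of the 9434 genes called higher and 0.244% called lower. It measured 0.149, 0.0919, 0.0867 and 0.0949 on the Irgm1-/- arrays, against 0.0396, 0.0304, 0.0467 and 0.0461 on the wild type arrays. Every Irgm1-/- array was higher than every wild type array, and Irgm1-/- replicate 1 was the highest. The difference was 1.36 (SE 0.21, 95% interval 0.89 to 1.83, n = 4 per group, adjusted p = 0.00843). Without Irgm1-/- replicate 1 it was 1.18 (adjusted p = 0.00577). The gene was dim, well above background on 4 of 4 Irgm1-/- and 1 of 4 wild type arrays. Its wild type level is thus poorly measured, and its Irgm1-/- arrays alone were enough to meet the filter. The call ended with normexp background correction (0.53, adjusted p = 0.195) and without a filter on dim probes (adjusted p = 0.06).

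Abca1 and Nr1h3 were higher without overlap but missed the threshold. At an unadjusted p of 0.05, 4 members were higher, against 16.1% of genes, and 2 were lower, against 6.66%. Abca1 measured 0.0850, 0.0644, 0.0583 and 0.0583 in Irgm1-/- samples and 0.0417, 0.0246, 0.0427 and 0.0244 in wild type samples (1.03, SE 0.23, adjusted p = 0.0522). Nr1h3 measured 0.168, 0.0831, 0.0926 and 0.0561 on the Irgm1-/- arrays, against 0.0469, 0.0377, 0.0382 and 0.0356 on the wild type arrays (1.23, SE 0.29, adjusted p = 0.0599). They were well above background on 3 of 4 Irgm1-/- arrays each and on 1 and 2 of 4 wild type arrays. A second probe of Nr1h3 differed by 0.61 with overlap. Both exporters, the only transport genes tested here, thus lay higher, but they met the filter wholly or mainly through the Irgm1-/- arrays. Of all genes, 11.5% were higher without overlap.

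Markers of macrophages were also higher. The 9 markers summed to 9.37 to 18.9 in Irgm1-/- samples and 5.49 to 11.6 in wild type samples, which overlapped, with 7 to 9 and 6 to 8 detected per array. Of the 8 tested, 3 were called higher, against 2.7% of all genes, with a median of 0.80. Age also ran with genotype here. The part of macrophage number or age in the Abcg1 difference was not tested.

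**Figure D3:**
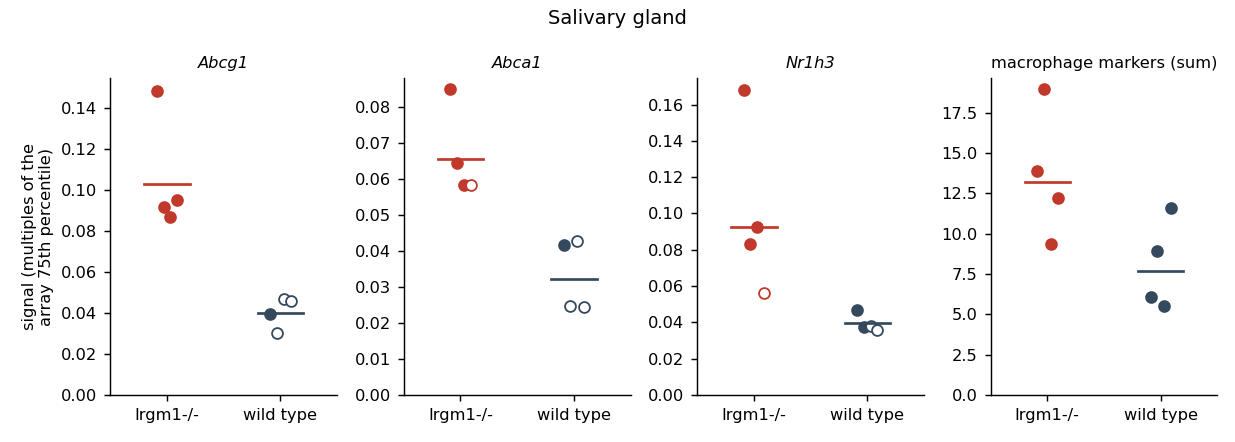
Signal of Abcg1, Abca1 and Nr1h3 and the summed signal of 9 macrophage markers on the 8 salivary gland arrays, as multiples of the array's 75th percentile, Irgm1-/- (red) left of wild type (dark). Each circle is an array, open where the probe was not well above background, and each bar a geometric mean. Abcg1 lies between 0.0867 and 0.149 in Irgm1-/- and between 0.0304 and 0.0467 in wild type.

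The enzymes of salivary gland lay near 0. The 13 tested had a median of -0.07 (-0.30 to 0.21), against 0.06 for all genes, and of 0.05, against 0.18 for all genes, when arrays were set to their medians. Of the 13, 4 lay above 0, against 57.8% of all genes, 0 were called, and 0 were higher and 1 (Mvk) lower at an unadjusted p of 0.05. Idi1, highest here too, was dim, with 0.0775, 0.0483, 0.0538 and 0.0399 on the Irgm1-/- arrays, against 0.0390, 0.0486, 0.0531 and 0.0443 on the wild type arrays (0.21, SE 0.20, 95% interval -0.25 to 0.67). Mvk was the lowest, with 0.204, 0.186, 0.213 and 0.191 in Irgm1-/- samples and 0.260, 0.251, 0.241 and 0.226 in wild type samples (-0.30, SE 0.10, adjusted p = 0.146). Its groups did not overlap, and its second probe was lower without overlap too (-0.37). Mvk and Srebf1 were the 2 members lower without overlap, against 3.39% of genes. Of the sterol steps, Sc5d stood highest, with 0.336, 0.277, 0.332 and 0.256 on the Irgm1-/- arrays, against 0.281, 0.288, 0.278 and 0.256 on the wild type arrays (0.11), and Fdft1 lowest, with 0.348, 0.319, 0.313 and 0.227 in Irgm1-/- samples and 0.308, 0.342, 0.344 and 0.410 in wild type samples (-0.23). Both overlapped.

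Of the salivary control genes, Srebf1, which drives fatty acid synthesis as well, measured 0.0978, 0.0862, 0.111 and 0.0947 on the Irgm1-/- arrays, against 0.129, 0.129, 0.172 and 0.122 on the wild type arrays (-0.49, SE 0.14, adjusted p = 0.107). Every Irgm1-/- array was lower. Insig2 was higher without overlap (0.35, adjusted p = 0.163), Srebf2 stood at 0.34 with overlap, and Insig1 at -0.17. The median of enzymes minus that of the 2 transport genes was -1.26. Both transport genes were dim and met the filter wholly or mainly through the Irgm1-/- arrays. Those left out as dim stood at 0.21 (Npc1), 0.02 (Npc1l1) and -0.24 (Stard4). This median difference depended on the filter and was smaller in size without it.

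**Figure D4:**
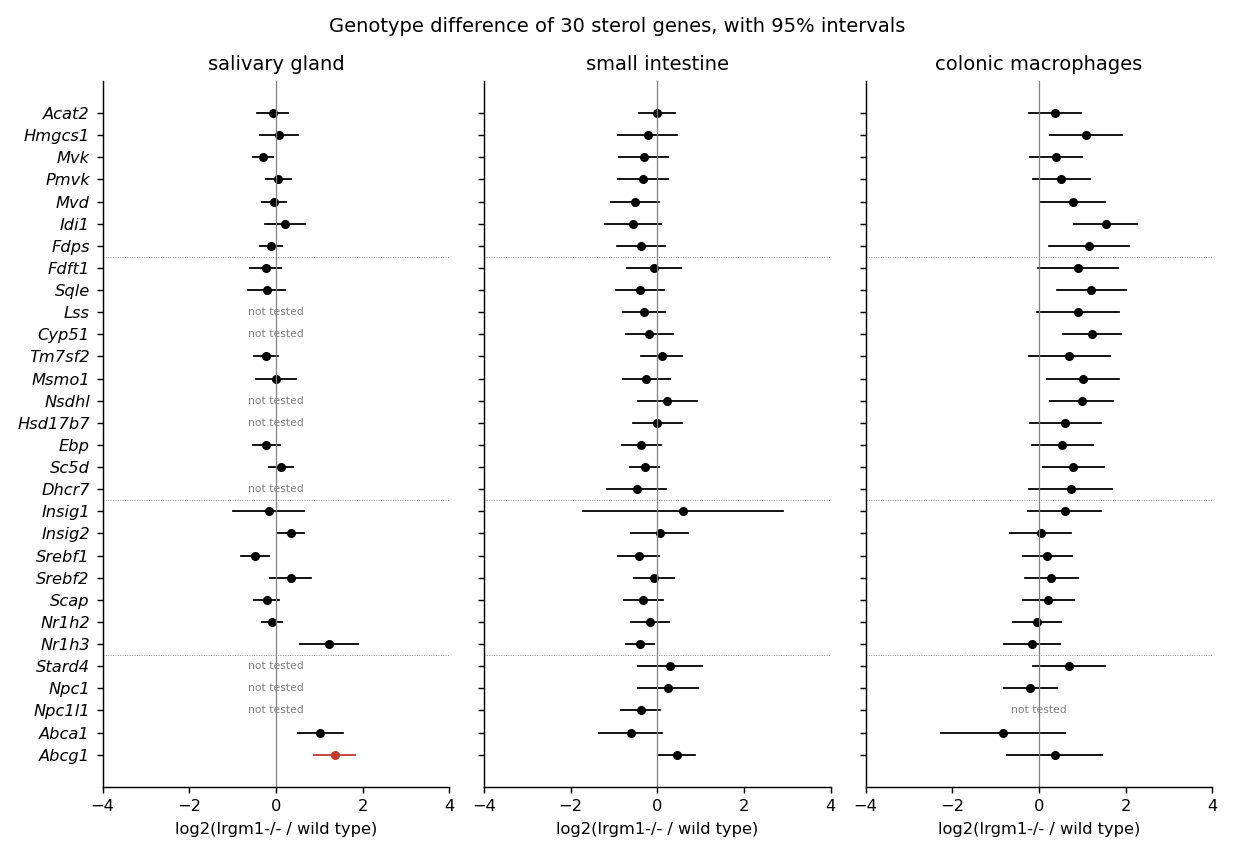
Log2 difference of Irgm1-/- over wild type for each of 30 genes in salivary gland, small intestine and colonic macrophages, with 95% intervals and dotted lines between the 4 roles. Red marks the only called gene, Abcg1 in salivary gland (1.36), whose wild type level was poorly measured. Genes detected on too few arrays are marked as not tested.

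Whether the genotype effect differed between tissues was tested as an interaction over all 20 arrays. This fit pools the spread of a gene over the tissues, unlike the fits per tissue. It also treats small intestine and macrophage arrays of the same animals as independent. Sex ran with genotype in those 2 tissues and age in salivary gland, and their part was not tested. The comparisons with macrophages share the macrophage arrays, so they are not independent. For small intestine minus macrophages, Idi1 (effects of -0.56 and 1.54, difference -2.11, SE 0.41, adjusted p = 0.0173) and Sqle (effects of -0.41 and 1.21, difference -1.61, SE 0.40, adjusted p = 0.0446) were called lower, against 0.37% of 12964 genes called lower and 1.69% higher. All 18 enzymes lay below 0, as did 62.9% of genes, with a median of -1.15, against -0.19 over all genes. In small intestine Sqle measured 7.04, 8.79 and 6.48 in Irgm1-/- samples and 13.1, 9.04 and 7.86 in wild type samples, with overlap, whereas the macrophage groups given above did not overlap. At an unadjusted p of 0.05, 14 of the 18 enzymes were lower, against 10.7% of genes. Mvd (-1.30, adjusted p = 0.0618), Sc5d (-1.09, 0.0633) and Fdps (-1.53, 0.0639) followed. With the replicate number as a block, 9 enzymes were called, Idi1, Sqle, Fdps, Mvd, Sc5d, Msmo1, Hmgcs1, Ebp and, with no wild type macrophage array well above background, Cyp51, with adjusted p between 0.0054 and 0.044, against 3.11% of genes lower in that fit.

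These 2 calls differed in how far they rested on single arrays. That of Idi1 ended without Irgm1-/- replicate 3 of small intestine (-1.99, adjusted p = 0.0645) and in 0 of the other 11 fits with an array left out. It also ended when arrays were set to their medians (adjusted p = 0.0819). That of Sqle ended in 8 of 12 such fits, with adjusted p from 0.0632 to 0.144: without any Irgm1-/- array of small intestine, wild type replicates 1 and 2 of small intestine, Irgm1-/- replicate 1 of macrophages, or wild type replicates 2 and 3 of macrophages.

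For salivary gland minus macrophages, Sqle (-1.42, SE 0.37, adjusted p = 0.017), Idi1 (-1.33, SE 0.37, adjusted p = 0.0276) and Fdps (-1.26, SE 0.38, adjusted p = 0.0417) were called lower, against 1.36% of 8965 genes, and Nr1h3 higher (1.38, SE 0.37, adjusted p = 0.0215), against 7.93%. All 13 enzymes tested lay below 0, as did 55.7% of genes, with a median of -0.93, against -0.06 over all genes. In salivary gland Sqle measured 0.136, 0.0739, 0.0940 and 0.0810 on the Irgm1-/- arrays, against 0.0991, 0.114, 0.109 and 0.112 on the wild type arrays, and Fdps 0.307, 0.248, 0.319 and 0.291 in Irgm1-/- samples and 0.300, 0.304, 0.321 and 0.323 in wild type samples, both with overlap. Without wild type replicate 3 of macrophages 0 members were called. The call of Sqle also ended without Irgm1-/- replicate 1 of macrophages (adjusted p = 0.0659), that of Nr1h3 without Irgm1-/- replicates 2 or 3 of macrophages (0.0537 and 0.0518), and those of Idi1 and Fdps in 6 and 11 of 14 fits (up to 0.102 and 0.145). For salivary gland minus small intestine Nr1h3 was the 1 member called (effects of 1.23 and -0.41, difference 1.63, SE 0.37, adjusted p = 0.04), against 0.791% of 9097 genes higher and 0.044% lower. That call ended in 12 of 14 fits with an array left out (adjusted p up to 0.127) and with the mean of all probes. Nr1h3 was dim in salivary gland, and its second probe there differed between genotypes by 0.61 with overlap.

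Levels of pathway RNA were compared between tissues on the wild type arrays, on a scale set by 8448 probes detected on all 20 arrays. Salivary gland held less pathway RNA than duodenum: 16 of 18 enzymes were called lower in salivary gland, against 37.9% of 15052 genes, and Acat2 was called higher (0.86), against 32.3%. The median was -1.98, against -0.11 for all genes. Idi1 had a relative signal of 0.0362 to 0.049 in salivary gland and 0.56 to 0.826 in small intestine (-3.90, SE 0.22, adjusted p = 1.03e-10), Cyp51 was at least 2.84-fold lower in salivary gland, and Nr1h3 differed by -4.12. Npc1l1 was at least 49.2-fold and Stard4 at least 6.48-fold lower in salivary gland, where neither was detected on a wild type array. Srebf1 (1.94), Nr1h2 (1.90), Scap (1.42) and Insig1 (2.11, dim in both tissues) were higher there.

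Macrophage samples held a different balance of enzymes from duodenum, with 4 called higher, against 52.4% of 17766 genes, and 11 lower, against 28%. The median was -1.04 while that of all genes was 0.89. Cyp51 was at least 8.50-fold lower in macrophages, and Sc5d (-4.01) and Idi1 (-3.49) were also low, while Acat2 (2.83), Npc1 (3.81) and Insig1 (6.74) were high. The relative signal of Insig1 was 0.793 to 1.34 in macrophages and 0.00248 to 0.0214 in small intestine. Npc1l1, well above background on 1 of 3 wild type macrophage arrays, had a fitted difference of -7.18. Dhcr7 was higher in macrophages (2.46) but stood at -0.08 when arrays were set to their medians.

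Against salivary gland, macrophages had 11 enzymes called higher, against 54.3% of 16481 genes, and 2 lower, Sc5d (-2.14) and Ebp (-0.72), against 24.5%. The median was 1.34, against 0.97 for all genes. Npc1 was at least 9.64-fold, Stard4 at least 5.16-fold and Dhcr7 at least 5.13-fold higher in macrophages, Nr1h2 differed by -2.62 and Insig1, well above background on 1 of 4 wild type salivary arrays, by a fitted 4.62. Sqle, Msmo1 and Hmgcs1 were highest in duodenum and lowest in salivary gland on this scale, each step called, whereas for Idi1 macrophages and salivary gland did not separate (0.41, adjusted p = 0.1).

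Levels against macrophages depended on the scaling of the arrays. In macrophages minus small intestine the median of all genes moved from 0.89 to -0.09 with the 75th percentile of all probes, to -0.46 with quantile normalization and to -1.65 with arrays set to their medians. The members split into 10 higher and 15 lower in the reported fit, and into 5 and 21, 5 and 19, and 2 and 26 under these settings. In macrophages minus salivary gland the median of all genes moved from 0.97 to -0.23, -0.03 and -0.72, and the split from 17 higher and 4 lower to 10 and 12, 14 and 11, and 6 and 12. The median of the enzymes stayed below that of all genes in the comparison with small intestine and above it in that with salivary gland under each of them. Sign changes were counted only where a member was called in the reported fit or in the alternative. So counted, 11 members changed sign in some setting against small intestine and 12 against salivary gland. In salivary gland minus small intestine 1 did, and the split there was 5 and 22, and 6 and 19 with normexp.

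**Figure D5:**
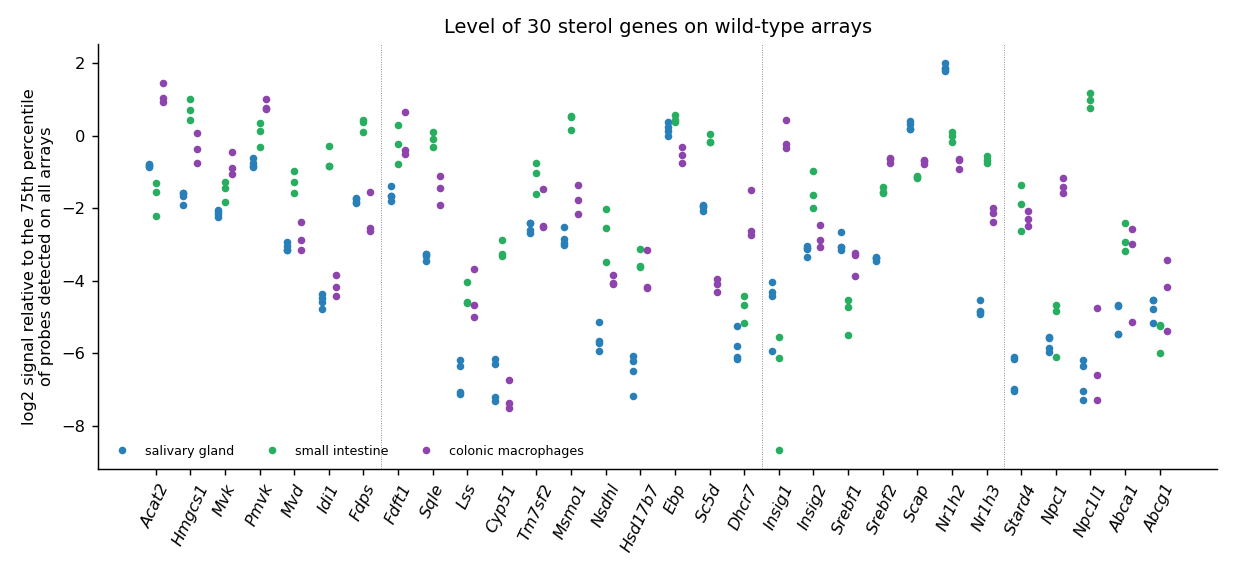
Log2 signal of 30 genes on the 10 wild type arrays, relative to the 75th percentile of probes detected on all arrays, with salivary gland in blue, small intestine in green and colonic macrophages in purple and dotted lines between the 4 roles. Most enzymes are highest in small intestine, and Npc1l1 stands far above the other tissues there (1.68 to 2.24 as a relative signal).

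The wider pathway was read from 47 other genes in 5 lists. In no tissue was any of them called for genotype by limma, against 2.95%, 0.177% and 0.362% of genes in salivary gland, small intestine and macrophages. At an unadjusted p of 0.05, 9 of 33 tested were higher and 1 lower in salivary gland, 0 of 43 higher and 4 lower in small intestine, and 4 of 45 higher and 6 lower in macrophages. The shares of all genes at that threshold were 16.1% higher and 6.66% lower for salivary gland, 2.64% higher and 4.34% lower for small intestine, and 4.43% higher and 7.9% lower for macrophages. Of 13 SREBP targets of fatty acid synthesis in macrophages, 10 lay above 0 (median 0.35), as did 60.5% of all genes. Scd2, a desaturase, differed by 1.52 (SE 0.51, adjusted p = 0.222) and Me1, which supplies reducing power, by -0.99. Among 5 other liver X receptor targets Abcg8 and Abcg5, the paired sterol exporters of gut and liver, differed by 0.89 and 0.61 (median 0.41). Among 12 genes of storage, uptake and traffic, Lrp1, an endocytic receptor, differed by -1.68 (SE 0.35, adjusted p = 0.086) and Gramd1a, which carries sterol inside cells, by -0.80 (median -0.13). Hsd3b7 (-0.93) and Cyp27a1 (-0.83), enzymes of bile acid synthesis, stood lowest among 3 oxysterol genes tested. Lbr, a sterol reductase of the nuclear envelope, and Erlin2, a membrane protein of the endoplasmic reticulum, differed by 0.71 and 0.67 (median of 12 genes 0.14).

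In salivary gland, the fatty acid targets had a median of 0.44 over 11 tested, with Elovl6 at 1.25 (SE 0.38, adjusted p = 0.113) and Me1 at 1.20 (SE 0.34, adjusted p = 0.096), both dim. Pltp, a lipid transfer protein and liver X receptor target, differed by 0.64 (SE 0.14, adjusted p = 0.0504), and Lpcat3, an enzyme that remodels phospholipids, by 0.14. Npc2, the lysosomal partner of Npc1, differed by 0.70, Scarb1 by 0.53, Hsd3b7 by 0.58 and Cyp27a1 by 0.10, Lbr by 0.64 and Erlin2 by 0.31. In small intestine, Scd1 differed by -1.35 (SE 0.61) and Fads2 by 0.83 (SE 0.54), and the largest differences in the other lists were 0.33 (Pltp), -0.27 (Abcg5), 0.60 (Gramd1a), -0.35 (Nceh1), 0.57 (Cyp27a1), 0.53 (Ch25h) and -0.25 (Dhdds).

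Of 41 of these other genes tested in small intestine minus macrophages, the interaction called 1 higher, Lrp1 (1.49, SE 0.36, adjusted p = 0.0402), and 0 lower. Of all genes there, 1.69% were called higher and 0.37% lower. In salivary gland minus macrophages it called 5 of 33 higher and 0 lower, against 7.93% of all genes higher and 1.36% lower. They were Lrp1 (2.03, adjusted p = 0.000591), Hsd3b7 (1.51, adjusted p = 0.00067), Fads1, a fatty acid desaturase (1.40, adjusted p = 0.00925), Pltp (1.14, adjusted p = 0.0138) and Me1 (2.19, adjusted p = 0.0281). Their sign was opposite to that of the 3 enzymes called there.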

How the data were processed

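RNA from 3 tissues was labelled with Cy5 and hybridized to 20 Agilent arrays, per the labels. Each deposited scanner file gives spot intensity on a linear scale, with background subtracted by the scanner software per the file headers, and flags of 0 or 1 for spots well above background, saturated or outlying. The authors' deposited series table holds intensity values that, from the values, are quantile-normalized within each tissue, and it served as an alternative only. Of 43020 spots per array, outliers (0.434%) were left out and 0 were saturated. Values are log2 signals minus each array's 75th percentile, taken in salivary gland, where under 50% of probes were detected, over probes detected on every array of the tissue, so a fold is relative to that percentile. Names came from RefSeq by accession for 27508 of 39429 probes, and genes are represented by their brightest probe.

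Testing required a signal well above background on 4 or more arrays in salivary gland and on 3 or more elsewhere. Genotypes were compared per tissue, and tissues by interaction and wild type contrasts over 20 arrays, with limma 3.58.1 (lmFit, eBayes; R 4.3.3) and Benjamini-Hochberg adjustment over all genes tested, at 0.05. Scripts were tested on simulated data. Animal numbers in the files tie small intestine and macrophages to 6 animals. Same-numbered samples are matched in age and slide in small intestine and macrophages, and in slide alone in salivary gland. After removal of group means they correlated by 0.19, 0.23 and 0.40 (small intestine) and by 0.50, 0.28 and 0.66 (macrophages), so the block is given there, and by 0.19, -0.12, -0.52 and 0.42 in salivary gland. All members are named. Values per array are given for those past the threshold and for the highest and lowest difference of each role and tissue, and, of other lists, up to 4 past the threshold or 2 with the largest difference. A gene that this rule names in small intestine is not reported here. Members and lists were chosen with earlier results of these data known. A bound divides the brighter mean by the higher of the lowest signal called well above background and the dim probe's own signal.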

Additional observations from a re-analysis of the deposited data

Results flagged for a closer look

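In groups of 4, a sample was marked when its gap to the nearest other sample took more of the range than Dixon's critical value at 95% allows, which chance alone does in about 5% of groups. Of 44 groups tested 4 were marked, all in salivary gland, the only tissue with groups of 4. Abcg1 on Irgm1-/- replicate 1 stood at -2.75 on the log2 scale, against -3.53 to -3.40 on the other Irgm1-/- arrays (ratio 0.832). Tm7sf2 on Irgm1-/- replicate 2 stood at -2.43, against -2.74 to -2.69 (ratio 0.853). Insig1 on Irgm1-/- replicate 4 stood at -4.62, against -4.77 to -4.75 (ratio 0.887), and Srebf1 on wild type replicate 3 at -2.54, against -3.04 to -2.96 (ratio 0.835).

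The genotype effect differed between tissues by the interaction test for 7 pairs of gene and tissues. Small intestine minus macrophages gave -2.11 for Idi1 and -1.61 for Sqle. Salivary gland minus macrophages gave -1.33 for Idi1, -1.26 for Fdps, -1.42 for Sqle and 1.38 for Nr1h3, and salivary gland minus small intestine gave 1.63 for Nr1h3. The comparisons with macrophages share the macrophage arrays.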

How the results depend on the processing

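The call of Abcg1 in salivary gland held in 17 of 19 alternatives, and 8 of the 19 were fits with an array left out. The 19 do not include the filter for detection on every array, under which Abcg1 was not tested. The number of members called there was 0 with normexp, with no filter and with detection on every array, 2 with the percentile over all probes and with all 20 arrays in the fit, 3 with slide as a block, and 1 to 2 with an array left out. With the replicate block it was 3, of 650 genes called, although same-numbered samples do not pair there. Small intestine gave 0 throughout. Macrophages gave 7 with the replicate block, 4 with all 20 arrays in the fit and 0 with an array left out. The enzyme median there was 0.43 with sex as a covariate and otherwise 0.68 to 0.85 with all arrays kept. Of all genes, macrophages called 58, against 382 with normexp, 142 with quantile normalization, 243 with median scaling, 29 with the percentile over other probes, 32 with no filter, 38 with slide and 1338 with the replicate number as a block, 909 with all 20 arrays, 14 with sex and 21 to 43 with an array left out. Salivary gland called 278, against 158 with median scaling, 147 with no filter, 130 with detection on every array, 629 with slide as a block and 136 to 379 with an array left out. Small intestine called 26, against 5 with normexp, 1 with the replicate block or sex, and 2 to 47 with an array left out.

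For the interactions, salivary gland minus small intestine called 0 members with normexp, quantile normalization, median scaling or the mean of all probes (an alternative chosen after seeing the data), 2 with the replicate block (Nr1h3, and Abca1 by 1.65 with adjusted p = 0.0136) and 0 to 1 with an array left out. Small intestine minus macrophages called 0 with median scaling, 5 with slide as a block or animal as a random block, 9 with the replicate block and 0 to 11 with an array left out, 11 being without wild type replicate 1 of macrophages. Salivary gland minus macrophages called 2 with normexp, 7 with quantile normalization, 1 with median scaling, 13 with the replicate block (Abca1 among them, by 1.86, adjusted p = 0.000705) and 0 to 12 with an array left out. With the replicate block, 1.61%, 8.31% and 15% of all genes were called in these contrasts, in the order given. Same-numbered samples do not pair in salivary gland, which limits the block in the contrasts with that tissue.

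Wild type counts ran with an array left out from 27 to 27, 24 to 25 and 20 to 23, in salivary gland minus small intestine, macrophages minus small intestine and macrophages minus salivary gland. Dhcr7 in macrophages minus small intestine turned to -0.082 with median scaling, and Abcg1 in macrophages minus salivary gland (0.42) to -0.79 with the percentile of all probes, -1.43 with quantile normalization and -1.28 with median scaling. The median of enzymes minus that of transport genes moved in salivary gland from -1.26 to -0.58 with normexp and -0.27 with no filter, and in small intestine from -0.54 to -0.20 with normexp, -1.43 within slide 1 and -0.068 within slide 2. With an array left out it ran from -1.36 to -1.14, -0.71 to -0.10 and 0.57 to 1.19 in salivary gland, small intestine and macrophages. The cause of these moves was not tested. Dim signal limits salivary gland, where 8 members could not be tested.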
